A study of Canis lupus familiaris with 24 samples.

Results

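TGFb and BMP receptors are described here through 8 genes: the type I receptors TGFBR1, ACVR1 and BMPR1A, the type II receptors TGFBR2, BMPR2 and ACVR2A, and the co-receptors TGFBR3 and ENG. They were chosen by symbol, and all 8 were present among the 32704 genes of the deposited count table. After a filter on low counts, 7 of the 8 were among the 12466 genes tested, and ENG was not. The cells were MDCK, a canine kidney epithelial line, in its sublines MDCK-NBL2 and MDCK-II, each sequenced as stranded mRNA libraries. MDCK-NBL2 cells gave 5 groups: day 4 of TGFb with siPRRX1, a small interfering RNA against the transcription factor gene PRRX1; day 4 of TGFb with siCTR, its counterpart; day 4 of TGFb with no siRNA; untreated day 4; and untreated day 0. MDCK-II cells gave 3 groups: day 4 of TGFb, untreated day 4 and untreated day 0. Each of the 8 groups had 3 libraries, 24 in all, and the labels call untreated cells epithelial, treated MDCK-II and siPRRX1 cells partial EMT (epithelial-mesenchymal transition), and the other treated MDCK-NBL2 cells full EMT. Both siRNA groups carried TGFb, so no siRNA was tested in untreated cells, and each subline is a single cultured line.

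Ligands of this family bind a type II receptor, a kinase that phosphorylates a type I receptor, which in turn phosphorylates SMAD proteins that move to the nucleus. TGFb itself acts mainly through TGFBR2 and TGFBR1 on SMAD2 and SMAD3, whereas BMPs act through BMPR2 or ACVR2A with BMPR1A or ACVR1 on SMAD1, SMAD5 and SMAD9. TGFBR3 (betaglycan) and ENG (endoglin) bind ligand and present it to the kinase receptors, and ENG is best known from endothelium. In kidney epithelium TGFb is a classic inducer of EMT, and BMP signals are known to oppose some of its effects.

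The libraries held between 6134929 and 27567296 counts, and the shallowest group was TGFb-treated MDCK-NBL2, with 6134929 to 9413761. The labels do not say that replicates are separate cultures, so the p-values below measure the spread between these libraries. Replicate 2 of untreated day 4 MDCK-NBL2 stood apart: on the first principal component, 59.4% of the variance, it scored 59.3, between the treated libraries of its line (84.1 to 98.7) and the other untreated day 4 libraries (-4.85 and -20.0). Called results of the 8 receptors that it enters are also given without it, which is not so for every other gene. MDCK-NBL2 untreated day 0 replicate 1 held counts of genes otherwise read mainly in MDCK-II, as described under TGFBR3. Of 10 epithelial markers, 8 were in the table by symbol and had counts in every library, with summed levels of 2581 to 7791 CPM (counts scaled to a common library size). TGFb lowered 6 of the 8 and raised 0 in MDCK-NBL2, CLDN3 by -2.09 and EPCAM by -1.30 on the log2 scale among them, and lowered 3 and raised 0 in MDCK-II. Of all tested genes 23.4% were called lower in MDCK-NBL2 and 9.27% in MDCK-II. CLDN4 changed by 0.28 in MDCK-NBL2 and 0.57 in MDCK-II, without a call in either line. The 8 summed to 3321 to 3753 CPM in treated and 4408 to 7791 CPM in untreated day 4 MDCK-NBL2, and to 3256 to 4718 CPM and 3292 to 4455 CPM in MDCK-II. KRT19 alone averaged 1903 CPM in treated and 3476 CPM in untreated day 4 MDCK-NBL2, so the sums reflect it most. With siPRRX1 3 of the 8 rose, CDH1, OCLN and CLDN3 (adjusted p = 0.033, 0.033 and 0.047), where 2.00% of all genes passed. The 8 summed to 3798 to 5331 CPM with siPRRX1 and 2581 to 4641 CPM with siCTR. The 7 fibroblast markers summed to 16.0 to 128 CPM in treated and 2.52 to 29.3 CPM in untreated day 4 MDCK-NBL2, and to 13.4 to 48.0 CPM in treated and 0.808 to 7.42 CPM in untreated day 4 MDCK-II. They summed to 6.55 to 12.8 CPM with siPRRX1 and 16.6 to 108 CPM with siCTR. These markers did not move together. In MDCK-NBL2 COL3A1 averaged 40.9 ± 55.0 CPM with TGFb and 0.0406 CPM untreated at day 4, LUM 2.36 and 0 CPM, but PDGFRA 12.2 and 14.8 CPM. In MDCK-II PDGFRA averaged 35.9 CPM with TGFb and 3.16 CPM untreated at day 4, with COL3A1 and LUM at 0 in both groups. DPT was at 0 in every library, PDGFRB had 2 counts and DCN 11 counts in all. The endothelial list summed to at most 12.0 CPM and the leukocyte list to at most 5.95 CPM, with 3 counts of PECAM1 and 0 of CD3E. The part of these marker levels in the receptor results was not tested. In bulk libraries, fewer cells of a type and less RNA per cell cannot be told apart.

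The knockdown target PRRX1 stood at 1.11, 0.339 and 0 CPM in the siPRRX1 libraries and at 33.9, 7.35 and 3.88 CPM in the siCTR libraries, a log2 fold change of -4.64 ± 1.17 (SE; adjusted p = 0.043, edgeR). It stood at 37.2, 8.89 and 5.71 CPM in TGFb-treated MDCK-NBL2, 0.975, 3.25 and 0 CPM in untreated day 4 MDCK-NBL2 and 7.07, 0.661 and 0.404 CPM at day 0. In MDCK-II it stood at 3.79, 5.84 and 3.01 CPM with TGFb, 0.504, 1.03 and 1.39 CPM untreated at day 4 and 0.345, 0.236 and 0.24 CPM at day 0. All 3 siPRRX1 libraries lay below all 3 siCTR libraries, and the log2 change ran from -6.33 to -3.18 (adjusted p = 0.056 to 0.30) when any 1 of the 6 was left out.

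The receptor set differed between the sublines at every time and treatment. MDCK-NBL2 cells had more TGFBR1, TGFBR2, BMPR2 and BMPR1A mRNA and far less TGFBR3 mRNA than MDCK-II cells, and 5 of the 7 tested receptors passed the test at day 0, untreated day 4 and with TGFb alike. The shares of all tested genes that passed were 28.5% at day 0, 36.3% untreated at day 4 and 45.9% with TGFb. Every one of the 7 tested receptors had non-overlapping groups at day 0 and with TGFb, against 55.7% and 63.1% of all tested genes, and 5 of 7 had them untreated at day 4, against 31.5%. The tests throughout are edgeR quasi-likelihood F tests on all 24 libraries, with Benjamini-Hochberg adjustment over all 12466 genes and a threshold of 0.05.

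TGFb changed the receptors in both lines. In MDCK-NBL2 it raised ACVR1, BMPR2, TGFBR1 and TGFBR3 and lowered TGFBR2, so 5 of 7 tested receptors passed, 4 higher and 1 lower, where 44.3% of all genes did, 21.0% higher and 23.4% lower. Leaving out any 1 of the 6 libraries left 2 to 4 calls; without untreated replicate 2 these were TGFBR1, ACVR1 and BMPR2, higher, and TGFBR2, lower, where 54.8% of all genes passed. A fit to those 6 libraries alone left 0, with 510 calls among all genes. In MDCK-II it raised ACVR1 and BMPR2 and lowered TGFBR3, 3 of 7, where 21.1% of all genes passed, 11.8% higher and 9.27% lower. The median log2 fold change over the 7 receptors was 0.58 in MDCK-NBL2 and 0.08 in MDCK-II, beside -0.04 and -0.03 over all tested genes. Without untreated replicate 2 it was 0.94 in MDCK-NBL2 and 0.08 in MDCK-II, beside -0.02 and -0.03. The difference between the responses of the lines passed for TGFBR3, 1 of 7 receptors, where 5.70% of all genes passed, and without untreated replicate 2 it passed for 3 of 7, where 21.1% did.

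**Figure D1:**
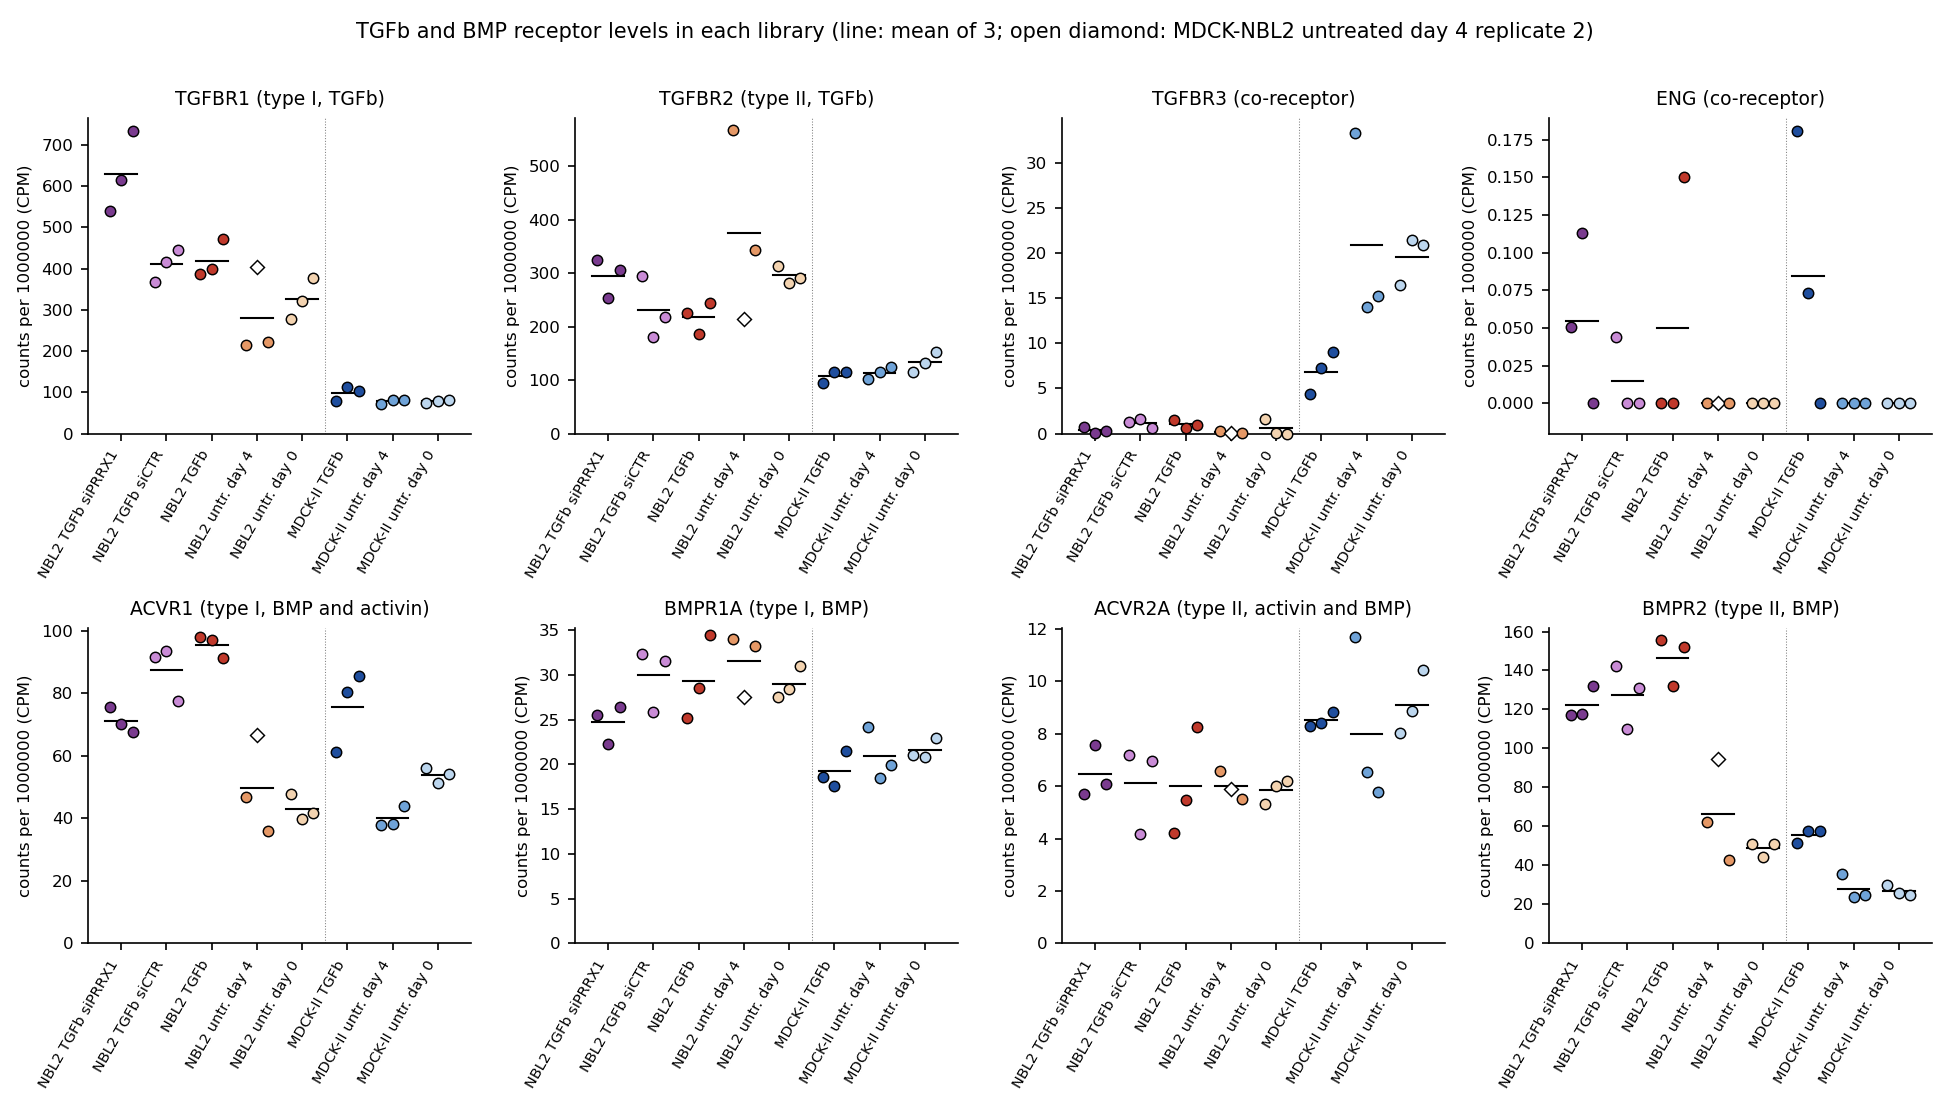
Level of each of the 8 receptors in every library, as CPM (counts scaled to a common library size, linear axis), by group. Each point is a library, the line is the mean of 3 and the open diamond is MDCK-NBL2 untreated day 4 replicate 2. TGFBR1 and TGFBR2 lie higher in the 5 MDCK-NBL2 groups on the left than in the 3 MDCK-II groups on the right, TGFBR3 lies lower, and ENG does not exceed 0.181 CPM.

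TGFBR1, the type I kinase that carries the TGFb signal to SMAD2 and SMAD3, was more abundant in MDCK-NBL2 than in MDCK-II under every condition. It was measured at 539, 615 and 733 CPM with siPRRX1 and at 369, 416 and 446 CPM with siCTR. In MDCK-NBL2 without siRNA it was at 387, 398 and 472 CPM with TGFb, 214, 404 and 222 CPM untreated at day 4 and 277, 323 and 377 CPM at day 0. In MDCK-II it was at 78.8, 112 and 104 CPM with TGFb, 71.7, 80.3 and 81.7 CPM untreated at day 4 and 74.6, 79.3 and 81.0 CPM at day 0. Every MDCK-NBL2 library lay above every MDCK-II library, and the highest group mean was 8.07 times the lowest. In order of mean level the groups ran siPRRX1, TGFb-treated MDCK-NBL2, siCTR, MDCK-NBL2 day 0, MDCK-NBL2 untreated day 4, treated MDCK-II, MDCK-II day 0 and MDCK-II untreated day 4. The ranges of neighbours in that order overlapped except between siPRRX1 and TGFb-treated MDCK-NBL2 and between the 2 lines.

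Between the lines TGFBR1 was 4.16-fold higher in MDCK-NBL2 at day 0 (log2 2.06 ± 0.20, adjusted p = 3.4e-07), 3.60-fold higher untreated at day 4 (1.85 ± 0.20, adjusted p = 8.3e-07; 1.49 and adjusted p = 4.3e-07 without untreated replicate 2 of MDCK-NBL2) and 4.27-fold higher with TGFb (2.09 ± 0.20, adjusted p = 2e-07). TGFb raised it 1.49-fold in MDCK-NBL2 (log2 0.58 ± 0.20, adjusted p = 0.023), although the groups overlapped through untreated replicate 2. Without that library the rise was 0.94 ± 0.16 (adjusted p = 6.4e-05). Leaving out untreated replicate 1 (0.41, adjusted p = 0.12), untreated replicate 3 (0.44, adjusted p = 0.11) or treated replicate 3 (0.48, adjusted p = 0.092) ended the call. In MDCK-II the TGFBR1 response was 0.33 ± 0.20 on the log2 scale (95% interval -0.08 to 0.75, adjusted p = 0.24). Treated libraries were higher in 3 of 3 same-numbered pairs, by 0.14, 0.48 and 0.34, and same-numbered samples deviated together here. With the replicate number as a block the response was 0.32 (adjusted p = 0.16), and with the block and without MDCK-NBL2 untreated day 4 replicate 2 it was 0.33 ± 0.10 (adjusted p = 0.015). The difference between the lines' responses was 0.25 ± 0.28 (-0.34 to 0.83, adjusted p = 0.66) with all libraries and 0.60 ± 0.21 (adjusted p = 0.047) without untreated replicate 2.

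TGFBR2, the type II kinase that binds TGFb and activates TGFBR1, fell with TGFb in MDCK-NBL2 while its partner rose. Its levels were 325, 253 and 307 CPM with siPRRX1 and 295, 181 and 218 CPM with siCTR. In MDCK-NBL2 without siRNA they were 225, 186 and 244 CPM with TGFb, 567, 214 and 344 CPM untreated at day 4 and 314, 282 and 292 CPM at day 0. In MDCK-II they were 93.7, 115 and 115 CPM with TGFb, 103, 115 and 124 CPM untreated at day 4 and 114, 132 and 153 CPM at day 0. Untreated day 4 MDCK-NBL2 was the most scattered group, with 1 library at 567 CPM and replicate 2 within the treated range. The group means ran from untreated day 4 through day 0, siPRRX1, siCTR and TGFb in MDCK-NBL2 to day 0, untreated day 4 and TGFb in MDCK-II, and only the step between the lines was free of overlap.

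On the log2 scale TGFBR2 changed with TGFb in MDCK-NBL2 by -0.78 ± 0.24, that is, 1.72-fold lower (adjusted p = 0.014). The change was -1.07 ± 0.20 (adjusted p = 0.00019) without untreated replicate 2. Leaving out untreated replicate 1 gave -0.36 (adjusted p = 0.18), and leaving out treated replicate 2 gave -0.68 (adjusted p = 0.061). In MDCK-II the change was -0.08 (95% interval -0.58 to 0.43, adjusted p = 0.86). The difference of the responses was -0.70 ± 0.34 (-1.42 to 0.01, adjusted p = 0.23) with all libraries and -0.99 ± 0.27 (adjusted p = 0.015) without untreated replicate 2. TGFBR2 was higher in MDCK-NBL2 by 2.23-fold at day 0 (log2 1.15 ± 0.24, adjusted p = 0.0012), by 3.29-fold untreated at day 4 (1.72 ± 0.25, adjusted p = 2e-05) and by 2.02-fold with TGFb (1.01 ± 0.24, adjusted p = 0.0024). Without untreated replicate 2 of MDCK-NBL2 the untreated day 4 difference was 2.00 (adjusted p = 3.6e-07).

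TGFBR3 encodes betaglycan, the co-receptor that presents TGFb ligands, TGFb2 above all, to TGFBR2. With all 24 libraries it was the only receptor of the 7 tested for which the response to TGFb was called different between the lines; without MDCK-NBL2 untreated day 4 replicate 2, TGFBR1 and TGFBR2 were called as well. MDCK-II libraries had 4.33, 7.27 and 9.04 CPM with TGFb, 33.3, 14.0 and 15.2 CPM untreated at day 4 and 16.4, 21.4 and 20.9 CPM at day 0. MDCK-NBL2 libraries without siRNA had 1.53, 0.609 and 0.902 CPM with TGFb, 0.244, 0.0739 and 0.115 CPM untreated at day 4 and 1.59, 0.0992 and 0 CPM at day 0. In these the counts were 8, 5 and 6 with TGFb, 6, 2 and 1 untreated at day 4 and 23, 3 and 0 at day 0, so every MDCK-NBL2 value rests on few reads. Each treated MDCK-II library lay below each untreated one, and each treated MDCK-NBL2 library lay above each untreated day 4 one. Treated and untreated day 4 groups did not overlap, in either direction, for 39.8% of all genes in MDCK-II and 43.0% in MDCK-NBL2. With siRNA the levels were 0.757, 0.113 and 0.283 CPM for siPRRX1 and 1.33, 1.60 and 0.647 CPM for siCTR.

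TGFb lowered TGFBR3 by 3.03-fold in MDCK-II (log2 -1.60 ± 0.53, adjusted p = 0.037). This call was lost without untreated replicate 1, the library at 33.3 CPM (-1.09, adjusted p = 0.15), without any single treated library (adjusted p = 0.12, 0.10 and 0.063), and in the DESeq2 Wald test (adjusted p = 0.053). In MDCK-NBL2 the log2 change was 2.63 ± 1.02 (adjusted p = 0.043), and 2.17 ± 1.15 (adjusted p = 0.12) without untreated replicate 2. With any 1 of those 6 libraries left out it ran from 2.17 to 3.38 (adjusted p = 0.05 to 0.15). Summed over libraries, 19 counts with TGFb stood against 9 untreated at day 4, a depth-scaled ratio of 6.35 with an exact 95% counting interval of 2.74 to 15.9, which covers counting error only. The difference of the responses was 4.23 ± 1.15 on the log2 scale (95% interval 1.82 to 6.64, adjusted p = 0.038). It kept its direction in each of 22 alternatives and its call in 12 of them. With 1 library left out it ran from 3.71 to 4.98, and the call was lost without MDCK-NBL2 untreated replicate 1 (adjusted p = 0.051), without any treated MDCK-NBL2 library (0.12, 0.057 and 0.077), without MDCK-II untreated replicate 1 or 3 (0.052 and 0.053), and without treated MDCK-II replicate 1 or 2 (0.071 and 0.064).

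**Figure D2:**
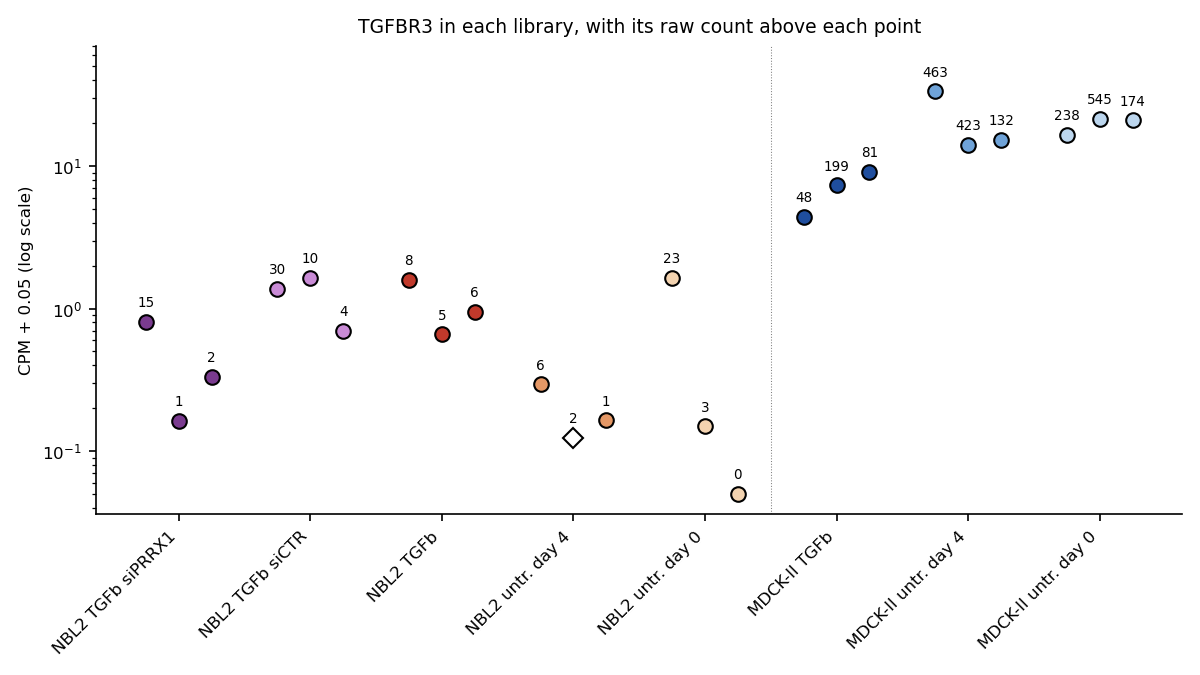
TGFBR3 in every library, as CPM + 0.05 on a log axis, with the raw count printed above each point and the open diamond marking MDCK-NBL2 untreated day 4 replicate 2. MDCK-II libraries lie to the right of the dotted line at 4.33 to 33.3 CPM, and all 15 MDCK-NBL2 libraries lie at 1.60 CPM or below.

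Between the lines TGFBR3 was lower in MDCK-NBL2 with log2 fold changes of -5.12 ± 0.68 at day 0 (adjusted p = 1e-05), -7.05 ± 0.78 untreated at day 4 (adjusted p = 8.5e-07) and -2.82 ± 0.70 with TGFb (adjusted p = 0.003). Without MDCK-NBL2 untreated day 4 replicate 2 the untreated day 4 value was -6.60 (adjusted p = 8.3e-06). As ratios of summed counts, 26 counts in MDCK-NBL2 against 957 in MDCK-II made TGFBR3 39.7-fold lower at day 0 (interval 26.9 to 61.1). Untreated at day 4, 9 counts against 1018 made it 129-fold lower (67.9 to 284), and with TGFb 19 against 328 made it 7.31-fold lower (4.60 to 12.3). The day 0 value was set by 1 library: MDCK-NBL2 day 0 replicate 1 held 23 of the 26 counts, and without it 3 counts against 957 made TGFBR3 249-fold lower (84.9 to 1209). In that same library 28 genes with at least 10 CPM in every MDCK-II library and a median of at most 0.5 CPM in MDCK-NBL2 reached 11.2% (median) of what MDCK-II libraries hold, against at most 0.821% in the other 14 MDCK-NBL2 libraries, a measure chosen after the values were seen. The part of those transcripts in the TGFBR3 count was not tested. The limit on the median by itself keeps most MDCK-NBL2 libraries low for these 28 genes. PRRX1 also stood high in that library, at 7.07 CPM against at most 5.84 CPM in any MDCK-II library.

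ENG, the other co-receptor, was at the limit of detection throughout. It had 8 counts in all, spread over 6 of the 24 libraries: 2 with siPRRX1, 1 with siCTR, 1 in TGFb-treated MDCK-NBL2 and 4 in treated MDCK-II. All untreated libraries had 0 counts. A count of 0 allows up to 3 counts over a group's libraries, which is 0.0497 to 0.149 CPM depending on the group's depth, and no fold change of ENG was computed. At this depth no difference in ENG was detectable.

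ACVR1 is the type I receptor also known as ALK2, used by BMPs and, in some cells, by TGFb itself. With all libraries TGFb raised it by nearly the same factor in both lines. Its levels were 97.8, 96.8 and 91.1 CPM in TGFb-treated and 46.9, 66.6 and 35.9 CPM in untreated day 4 MDCK-NBL2, and 61.0, 80.4 and 85.6 CPM in treated and 37.8, 38.3 and 43.9 CPM in untreated day 4 MDCK-II. In both lines each treated library lay above each untreated day 4 library, which also held for 43.0% of all genes in either direction in MDCK-NBL2 and for 39.8% in MDCK-II. The log2 rise was 0.93 ± 0.16 in MDCK-NBL2 (1.90-fold, adjusted p = 0.00025) and 0.92 ± 0.16 in MDCK-II (1.90-fold, adjusted p = 0.00099). The difference between the responses was 0.01 on the log2 scale, with a 95% interval of -0.48 to 0.49 (adjusted p = 1). Without untreated replicate 2 the MDCK-NBL2 rise was 1.19 ± 0.14 (adjusted p = 1.4e-06), above the 0.92 of MDCK-II. The difference between the responses of ACVR1 was not called in that fit either. In a fit to the 2 MDCK-NBL2 groups alone, the adjusted p of the ACVR1 rise was 0.056.

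At day 0 ACVR1 stood at 47.8, 39.8 and 41.6 CPM in MDCK-NBL2 and at 56.0, 51.3 and 54.2 CPM in MDCK-II, ranges that did not overlap, with a log2 difference of -0.32 ± 0.16 (adjusted p = 0.16). Untreated at day 4 the log2 difference was 0.32 (adjusted p = 0.13) with all libraries and 0.06 (adjusted p = 0.78) without untreated replicate 2, and with TGFb it was 0.33 (adjusted p = 0.10). Over the 8 groups, the mean ACVR1 level ran from TGFb-treated MDCK-NBL2 through siCTR, treated MDCK-II and siPRRX1 to MDCK-II day 0, MDCK-NBL2 untreated day 4, MDCK-NBL2 day 0 and MDCK-II untreated day 4. The means of the 4 groups that carried TGFb lay above those of the 4 that did not. Among neighbours only siPRRX1 and MDCK-II day 0 did not overlap, and the highest mean was 2.38 times the lowest.

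BMPR2, the type II receptor specific to BMPs and GDFs, rose with TGFb in both lines and was higher in MDCK-NBL2 at every step. It stood at 155, 132 and 152 CPM in TGFb-treated MDCK-NBL2, 62.5, 94.8 and 42.6 CPM untreated at day 4 and 50.8, 44.4 and 51.0 CPM at day 0. In MDCK-II it stood at 51.5, 57.6 and 57.9 CPM with TGFb, 35.6, 23.7 and 24.7 CPM untreated at day 4 and 30.1, 25.7 and 25.0 CPM at day 0. Treated and untreated day 4 libraries did not overlap in either line, which also held for 43.0% of all genes in MDCK-NBL2 and 39.8% in MDCK-II. TGFb raised BMPR2 2.19-fold in MDCK-NBL2 (log2 1.13 ± 0.20, adjusted p = 0.00029) and 1.99-fold in MDCK-II (0.99 ± 0.21, adjusted p = 0.0028), and the difference between these responses was 0.14 (95% interval -0.46 to 0.73, adjusted p = 0.83). Without untreated replicate 2 the MDCK-NBL2 rise was 1.47 ± 0.18 (adjusted p = 1.4e-06), further above the 0.99 of MDCK-II. The difference between the responses of BMPR2 was not called in that fit either. In a fit to the 2 MDCK-NBL2 groups alone, the adjusted p of the BMPR2 rise was 0.057.

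Between the lines BMPR2 was 1.81-fold higher in MDCK-NBL2 at day 0 (log2 0.85 ± 0.21, adjusted p = 0.0035), 2.39-fold higher untreated at day 4 (1.26 ± 0.21, adjusted p = 7.5e-05) and 2.63-fold higher with TGFb (1.40 ± 0.20, adjusted p = 2.4e-05). The untreated day 4 difference was 0.92 (adjusted p = 0.00029) without untreated replicate 2 of MDCK-NBL2, and it had an adjusted p of 0.061 in a fit to those groups alone. The order of BMPR2 means was TGFb-treated MDCK-NBL2, siCTR, siPRRX1, MDCK-NBL2 untreated day 4, treated MDCK-II, MDCK-NBL2 day 0, MDCK-II untreated day 4 and MDCK-II day 0, and the top mean was 5.45 times the bottom one. The 3 MDCK-NBL2 groups with TGFb lay above all others. Among them siCTR overlapped the other two, which did not overlap each other.

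**Figure D3:**
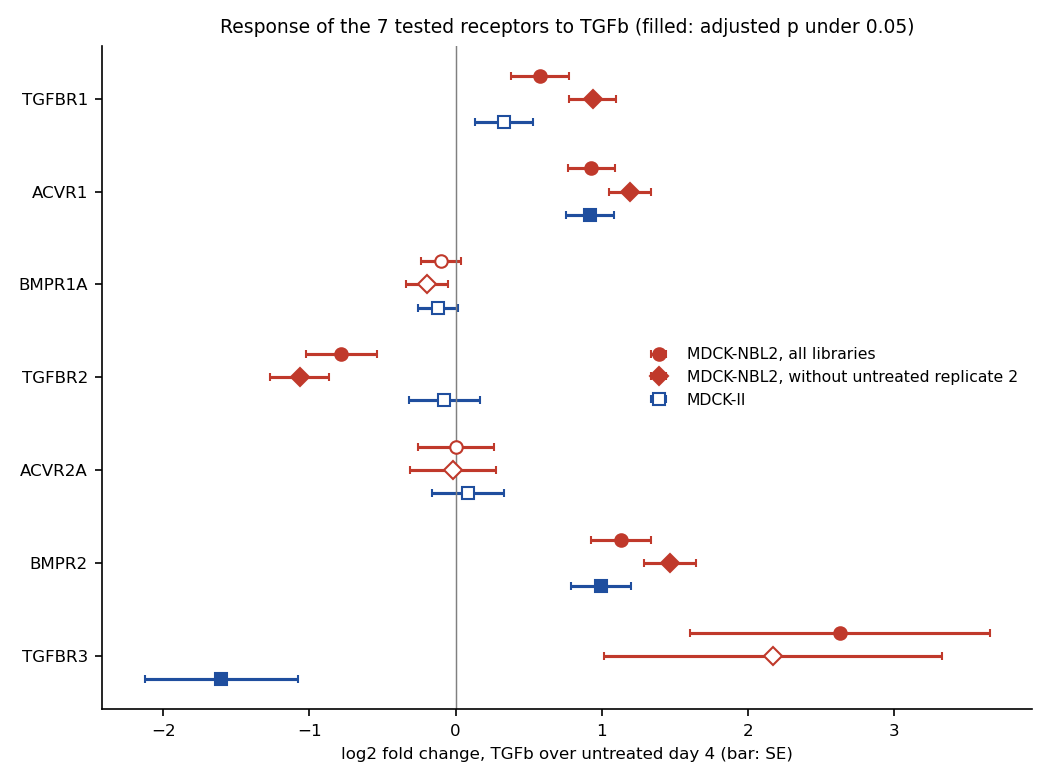
Log2 fold change of each tested receptor, TGFb-treated over untreated day 4, in MDCK-NBL2 with all libraries, in MDCK-NBL2 without untreated replicate 2 and in MDCK-II. Points are fitted values, bars are standard errors and filled points have an adjusted p under 0.05. With all libraries ACVR1 and BMPR2 lie near 1 in both lines, while TGFBR3 lies at 2.63 in MDCK-NBL2 and -1.60 in MDCK-II. Without untreated replicate 2 ACVR1 and BMPR2 lie further above 0 in MDCK-NBL2.

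BMPR1A and ACVR2A were the least variable of the 7. BMPR1A, the type I BMP receptor ALK3, lay between 17.6 and 34.4 CPM in every library. TGFb changed it by -0.10 on the log2 scale in MDCK-NBL2 (95% interval -0.39 to 0.18, adjusted p = 0.57) and by -0.12 in MDCK-II (-0.40 to 0.17, adjusted p = 0.57), with a difference of 0.02 between the lines (-0.38 to 0.42, adjusted p = 0.98). It was higher in MDCK-NBL2, with 29.0 ± 1.77 CPM against 21.6 ± 1.16 CPM in MDCK-II at day 0 (SD, n = 3 each), a log2 difference of 0.43 ± 0.14 (1.34-fold, adjusted p = 0.023, edgeR). That call was lost without either MDCK-II replicate 1 or 2 or either MDCK-NBL2 replicate 2 or 3 (adjusted p = 0.07, 0.081, 0.051 and 0.079). Untreated at day 4 BMPR1A averaged 31.6 ± 3.54 CPM in MDCK-NBL2 and 20.9 ± 2.95 CPM in MDCK-II, a log2 difference of 0.60 ± 0.14 (adjusted p = 0.0017, edgeR; 0.69 and adjusted p = 0.00072 without untreated replicate 2 of MDCK-NBL2; adjusted p = 0.11 in a fit to those groups alone). With TGFb it averaged 29.4 ± 4.70 CPM in MDCK-NBL2 and 19.3 ± 2.03 CPM in MDCK-II, a log2 difference of 0.61 ± 0.14 (1.53-fold, adjusted p = 0.0014, edgeR). In order of means the groups ran MDCK-NBL2 untreated day 4, siCTR, TGFb and day 0, then siPRRX1, then MDCK-II day 0, untreated day 4 and TGFb, and among neighbours only MDCK-NBL2 day 0 and siPRRX1 did not overlap.

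ACVR2A, a type II receptor shared by activins and BMPs, lay between 4.15 and 11.7 CPM in every library and passed no test with all libraries and groups in the fit. Its response to TGFb was 0.00 on the log2 scale in MDCK-NBL2 (95% interval -0.54 to 0.55, adjusted p = 1.0) and 0.08 in MDCK-II (-0.43 to 0.60, adjusted p = 0.85), with a difference of -0.08 (-0.83 to 0.67, adjusted p = 0.93). MDCK-NBL2 libraries held less of it than MDCK-II libraries, without overlap, at day 0 (5.33 to 6.19 CPM against 8.01 to 10.4 CPM) and with TGFb (4.22 to 8.27 CPM against 8.31 to 8.82 CPM). The log2 differences between the lines were -0.64 ± 0.25 at day 0 (adjusted p = 0.063), -0.41 untreated at day 4 (adjusted p = 0.21) and -0.50 with TGFb (adjusted p = 0.13). In a fit to the 2 groups alone the day 0 difference was -0.58 (adjusted p = 0.016; 0.019 with the replicate block), and without treated MDCK-NBL2 replicate 3 the difference with TGFb was -0.80 (adjusted p = 0.032). In the order of the 8 means the 3 MDCK-II groups came first, and every pair of neighbours overlapped.

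**Figure D4:**
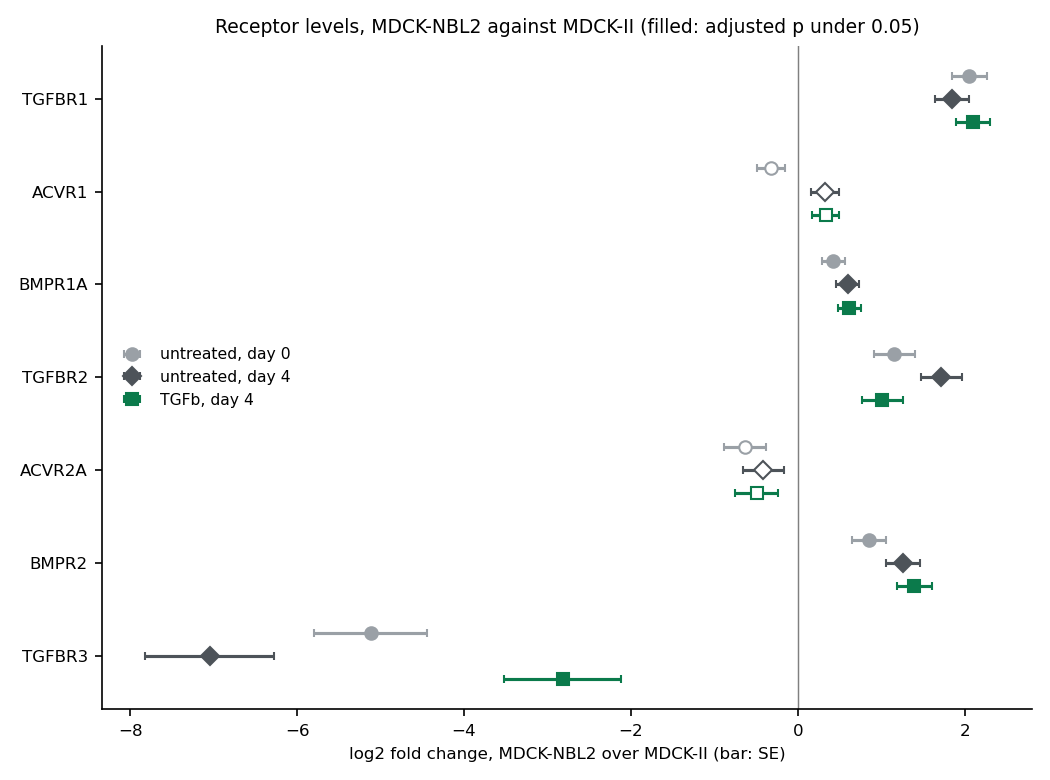
Log2 fold change of each tested receptor, MDCK-NBL2 over MDCK-II, at untreated day 0, untreated day 4 and TGFb day 4. Points are fitted values, bars are standard errors and filled points have an adjusted p under 0.05; TGFBR1, TGFBR2, BMPR2 and BMPR1A lie above 0 under all 3 conditions, and TGFBR3 lies between -7.05 and -2.82.

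Knockdown of PRRX1 during TGFb treatment gave no receptor that passed the test: 0 of 7, where 2.00% of all genes passed, with 1 receptor at an unadjusted p under 0.05 and 0 by DESeq2, where 3.70% of all genes passed. That receptor was TGFBR1, which ranked 562 by unadjusted p among the 12466 tested genes. BMPR1A, at an unadjusted p of 0.055 in edgeR, ranked 1957. TGFBR1 stood at the levels given above, where each siPRRX1 library exceeded each siCTR library. Its log2 fold change was 0.62 ± 0.20 (1.53-fold, 95% interval 0.20 to 1.03, unadjusted p = 0.0054, adjusted p = 0.12), and the siPRRX1 library was higher in 3 of 3 same-numbered pairs, by 0.55, 0.56 and 0.72. Samples with the same replicate number deviated together here, and with the number as a block in a fit to the 2 siRNA groups the change was 0.61 ± 0.07 (adjusted p = 0.00055), where 22.5% of all genes passed. Without MDCK-NBL2 untreated day 4 replicate 2, which is in neither group but enters the shared estimate of the spread, it was 0.62 ± 0.14 (adjusted p = 0.015), where 5.21% passed.

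TGFBR2 was higher with siPRRX1 in the same 3 pairs, by 0.14, 0.49 and 0.49, but the groups overlapped, and the fitted log2 change was 0.35 ± 0.24 (95% interval -0.15 to 0.85, adjusted p = 0.55). ACVR1 stood at 75.5, 70.2 and 67.7 CPM with siPRRX1 and at 91.7, 93.4 and 77.5 CPM with siCTR. All 3 siPRRX1 libraries were lower than all 3 siCTR libraries, and the log2 change was -0.30 ± 0.16 (-0.64 to 0.04, adjusted p = 0.42). With the replicate block in the fit to the siRNA groups, TGFBR2 changed by 0.37 (adjusted p = 0.014) and ACVR1 by -0.29 (adjusted p = 0.017), so 3 of 7 receptors passed there. The groups did not overlap for 2 of 7 receptors, TGFBR1 and ACVR1, where 31.6% of all genes did not.

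TGFBR3 had 15, 1 and 2 counts with siPRRX1 and 30, 10 and 4 with siCTR, and the ranges overlapped. The summed counts, 18 against 44, gave a ratio of 0.401 (95% counting interval 0.218 to 0.709), and the fitted log2 change was -1.37 ± 0.83 (95% interval -3.09 to 0.36, adjusted p = 0.47). BMPR1A averaged 24.7 ± 2.19 CPM with siPRRX1 and 29.9 ± 3.52 CPM with siCTR (SD, n = 3 each), a log2 change of -0.28 ± 0.14 (-0.56 to 0.01, adjusted p = 0.35, edgeR). BMPR2 stood at 117, 118 and 132 CPM with siPRRX1 and 142, 110 and 131 CPM with siCTR (-0.06, interval -0.48 to 0.35, adjusted p = 0.94). For ACVR2A the log2 change was 0.05 (-0.49 to 0.60, adjusted p = 0.97).

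The library numbers in the table fall into a series of 19 and a series of 5. The smaller one holds TGFb-treated MDCK-NBL2 replicate 1 and replicates 2 and 3 of both siRNA groups. The replicate block in the fit to the siRNA groups therefore also takes up any difference between the series. Shared deviations of same-numbered siRNA libraries may include that difference. The siPRRX1 effect on TGFBR1 was 0.64 within the smaller series and 0.55 within the larger. That on ACVR1 was -0.30 and -0.28, and that on BMPR1A -0.24 and -0.34. The values were further apart for TGFBR3, at -1.98 and -0.73, and for TGFBR2, at 0.49 and 0.14. They differed in sign for BMPR2, at 0.06 and -0.28, and ACVR2A, at 0.33 and -0.33. For the response to TGFb in MDCK-NBL2, only the larger series has both groups, and there TGFBR1 changed by 0.69, TGFBR2 by -0.70, TGFBR3 by 1.85, ACVR1 by 0.96 and BMPR2 by 1.16.

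**Figure D5:**
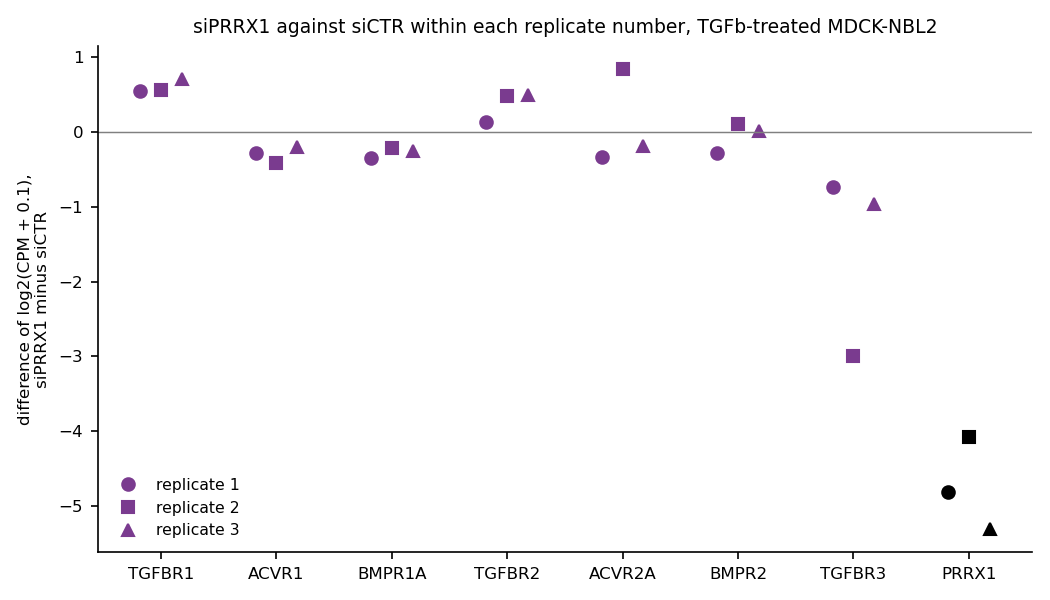
Difference of log2(CPM + 0.1) between siPRRX1 and siCTR libraries of the same replicate number, for the 7 tested receptors and PRRX1. Each point is a pair of libraries; all 3 pairs lie above 0 for TGFBR1 and TGFBR2, below 0 for TGFBR3, ACVR1, BMPR1A and PRRX1, and on both sides for BMPR2 and ACVR2A.

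Whether time in culture without TGFb gave a receptor call depended on the libraries in the fit. With all libraries, 0 of 7 passed from day 0 to day 4 in MDCK-NBL2 (17.7% of all genes) and 0 of 7 in MDCK-II (9.81%). In each line 1 receptor had an unadjusted p under 0.05 and 0 passed by DESeq2 (21.7% and 13.2% of all genes). In MDCK-NBL2 that was BMPR2, which ranked 3951 by unadjusted p among the 12466 tested genes. It had a log2 change of 0.46 at day 4 over day 0 (unadjusted p = 0.035, adjusted p = 0.11), which was 0.12 without untreated day 4 replicate 2. Without that library the log2 change at day 4 was -0.57 for TGFBR1 (adjusted p = 0.022) and 0.62 for TGFBR2 (adjusted p = 0.045), where 14.6% of all genes passed. TGFBR3 in MDCK-NBL2 changed by -1.84 on the log2 scale (95% interval -3.89 to 0.20, adjusted p = 0.18). In MDCK-II the receptor at an unadjusted p under 0.05 was ACVR1, with 37.8, 38.3 and 43.9 CPM at day 4 and 56.0, 51.3 and 54.2 CPM at day 0, all lower at day 4, without overlap, as for 41.1% of all genes in either direction (-0.43 ± 0.16, unadjusted p = 0.016, adjusted p = 0.099). By unadjusted p ACVR1 ranked 2018 among the 12466 tested genes. Without MDCK-NBL2 untreated day 4 replicate 2 its adjusted p was 0.024, where 16.5% of all genes passed.

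Of 12 further receptors and pseudo- or co-receptors listed, 9 were in the table and 4 were tested. BMPR1B, the type I BMP receptor ALK6, averaged 66.7 ± 11.2 CPM in TGFb-treated and 20.5 ± 5.07 CPM in untreated day 4 MDCK-NBL2, a rise of 1.71 ± 0.20 (adjusted p = 1.1e-05). In MDCK-II it averaged 54.5 ± 14.2 CPM with TGFb and 44.9 ± 3.00 CPM untreated (0.28, 95% interval -0.12 to 0.67, adjusted p = 0.31). The responses of BMPR1B differed by 1.43 ± 0.27 (adjusted p = 0.0063; 1.48 and adjusted p = 0.0017 without untreated replicate 2). In untreated cells BMPR1B was lower in MDCK-NBL2, with 25.7 against 57.1 CPM in MDCK-II at day 0 (log2 -1.16) and 20.5 against 44.9 CPM at day 4 (-1.14), each with an adjusted p of 0.00012. In those same cells BMPR1A, the other type I receptor dedicated to BMPs, was higher in MDCK-NBL2.

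BAMBI, a decoy receptor without a kinase domain and a known TGFb target, averaged 227 ± 51.1 CPM in treated and 1.75 ± 0.592 CPM in untreated day 4 MDCK-II (log2 7.01 ± 1.17, adjusted p = 0.00059). In MDCK-NBL2 it averaged 273 ± 24.2 CPM with TGFb, against 1.87, 1.95 and 137 CPM untreated, the last in replicate 2 (log2 2.51 ± 0.90, adjusted p = 0.029). Leaving out untreated replicate 1 or 3 gave 1.94 and 1.97 (adjusted p = 0.056 and 0.062), and leaving out treated replicate 2 or 3 gave 2.53 and 2.44 (adjusted p = 0.05 and 0.058). Without untreated replicate 2 the BAMBI rise in MDCK-NBL2 was 7.16 (adjusted p = 2.2e-10). The activin type I receptor ACVR1B fell in both lines, to 2.38 ± 0.302 CPM with TGFb against 5.39 ± 2.09 CPM untreated in MDCK-NBL2 (-1.20 ± 0.31, adjusted p = 0.0044), and to 2.67 ± 0.664 against 7.93 ± 3.49 CPM in MDCK-II (-1.58 ± 0.29, adjusted p = 0.0012). The activin type II receptor ACVR2B fell in MDCK-NBL2, to 1.59 ± 0.682 against 3.32 ± 0.388 CPM (-1.02 ± 0.29, adjusted p = 0.0077), and changed by -0.29 in MDCK-II (adjusted p = 0.45); the difference between the lines was -0.73 (95% interval -1.54 to 0.09, adjusted p = 0.28). With siPRRX1, 0 of these 4 passed, 0 had an unadjusted p under 0.05 and 0 passed by DESeq2, which left 1 without an adjusted p. ACVRL1 had 0 counts in all 24 libraries, ACVR1C 12, AMHR2 33, RGMA 125 and HJV 3, while RGMB, TDGF1 and CFC1 were not analysed here.

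Among ligands, 12 of 28 listed were tested. TGFb raised 4 and lowered 0 in MDCK-NBL2, where 44.3% of all genes passed (8 and 0 without untreated replicate 2, where 54.8% did), and raised 6 and lowered 1 in MDCK-II, where 21.1% did. TGFB2, the ligand that depends most on TGFBR3, reached 162 ± 33.1 CPM with TGFb against 90.1 ± 13.3 CPM untreated in MDCK-NBL2 (0.84 ± 0.21, adjusted p = 0.0034, edgeR, n = 3 each) and 234 ± 46.1 against 49.7 ± 16.2 CPM in MDCK-II (2.24 ± 0.22, adjusted p = 4.2e-06). BMP4, a ligand of BMPR1A and BMPR2, averaged 137 CPM with TGFb and 138 CPM untreated in MDCK-NBL2, but 170 and 33.4 CPM in MDCK-II (2.35 ± 0.21, adjusted p = 2.4e-06), so the responses differed by -2.36 ± 0.29 (adjusted p = 3e-04). These BMP4 values include untreated replicate 2 of MDCK-NBL2. BMP7, which binds ACVR1 and ACVR2A, rose in MDCK-II to 127 ± 7.80 CPM against 42.3 ± 3.60 CPM (1.59 ± 0.20, adjusted p = 5.5e-05) and in MDCK-NBL2 to 312 ± 6.99 CPM against 200 ± 89.5 CPM (0.64 ± 0.19, adjusted p = 0.011). The MDCK-NBL2 rise of BMP7 was 1.07 (adjusted p = 4.8e-07) without untreated replicate 2, and its call was lost without untreated replicate 1 (0.44, adjusted p = 0.071) or 3 (0.48, adjusted p = 0.062). GDF11, a TGFBR1 and ACVR2 ligand, rose in MDCK-NBL2 to 16.7 ± 4.30 CPM against 5.36 ± 1.33 CPM (1.61 ± 0.24, adjusted p = 7.7e-05) and in MDCK-II to 13.1 ± 2.51 CPM against 4.44 ± 1.07 CPM (1.56 ± 0.24, adjusted p = 0.00034). GDF9, an oocyte factor of the same family, was the 1 ligand that fell in MDCK-II, to 0.572 ± 0.140 CPM against 1.45 ± 0.547 CPM (-1.35 ± 0.34, adjusted p = 0.0096; adjusted p = 0.055 without treated replicate 2). The response difference passed for 4 of the 12 ligands, where 5.70% of all genes passed, each with the response lower in MDCK-NBL2; without untreated replicate 2 it was lower for 4 and higher for 1, where 21.1% passed.

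Of the 8 SMADs, which carry the receptors' signal, TGFb raised 1 and lowered 1 in MDCK-NBL2 (4 and 2 without untreated replicate 2) and raised 3 in MDCK-II, beside shares of all genes of 44.3% (54.8% without that library) and 21.1%. SMAD3, the substrate of TGFBR1, fell in MDCK-NBL2 (-0.77 ± 0.23, adjusted p = 0.011) and responded differently in the lines (-1.30 ± 0.32, adjusted p = 0.025). Without MDCK-NBL2 untreated replicate 1 the SMAD3 values were -0.45 (adjusted p = 0.11) and -0.98 (adjusted p = 0.058), and the difference also lost its call without treated MDCK-NBL2 replicate 1 or 3 or treated MDCK-II replicate 2 (adjusted p = 0.059, 0.061 and 0.06). SMAD6, which blocks BMP type I receptors, rose in both, by 0.55 ± 0.22 in MDCK-NBL2 (adjusted p = 0.046) and 0.93 ± 0.22 in MDCK-II (adjusted p = 0.0068), and the MDCK-NBL2 call was lost without untreated replicate 1 or 3 or treated replicate 2 or 3 (adjusted p = 0.18, 0.16, 0.095 and 0.17). SMAD7, which directs TGFBR1 to degradation, reached 24.5 CPM with TGFb against 2.40 CPM untreated in MDCK-II (3.38 ± 0.51, adjusted p = 0.00028). SMAD9, a BMP-responsive SMAD, rose there to 11.7 ± 2.47 CPM against 4.30 ± 1.76 CPM (1.43 ± 0.30, adjusted p = 0.0032). In MDCK-NBL2, with all libraries, neither was called. SMAD7 averaged 40.7 ± 1.58 CPM with TGFb in that line against 20.1 ± 22.2 CPM untreated at day 4 (0.99 ± 0.44, adjusted p = 0.075, edgeR). SMAD9 averaged 28.0 ± 7.77 against 17.3 ± 5.29 CPM (0.69 ± 0.28, adjusted p = 0.051, edgeR). The SMAD7 responses differed by -2.40 ± 0.66 (adjusted p = 0.041), or by -0.98 (adjusted p = 0.015) without untreated replicate 2, and the call was lost without any 1 treated library of either line or without MDCK-II untreated replicate 2 or 3 (adjusted p = 0.056 to 0.096).

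Of 18 listed regulators of receptors and SMADs, 15 were tested, and TGFb raised 4 and lowered 2 in MDCK-NBL2 (7 and 3 without untreated replicate 2) and raised 7 and lowered 2 in MDCK-II, beside the same shares of all genes, 44.3% (54.8%) and 21.1%. CD109, a co-receptor that restrains TGFb signalling, rose by 1.05 ± 0.17 in MDCK-NBL2 (adjusted p = 0.00012) and by 0.84 ± 0.17 in MDCK-II (adjusted p = 0.002). DAB2, an adaptor that links TGFb receptors to endocytosis, rose in MDCK-NBL2 to 135 ± 23.5 CPM against 33.0 ± 24.9 CPM (2.01 ± 0.40, adjusted p = 0.00065). USP15, a deubiquitinase of TGFBR1, fell in MDCK-II (-0.75 ± 0.15, adjusted p = 0.0022), and ARRB2, an arrestin that takes up TGFBR3, fell in MDCK-NBL2 (-1.28 ± 0.23, adjusted p = 3e-04). Extracellular regulators, 14 tested of 19, showed 7 raised and 1 lowered in MDCK-NBL2 and 5 and 2 in MDCK-II, where 44.3% and 21.1% of all genes passed. Without untreated replicate 2, 13 were tested, with 8 raised and 1 lowered in MDCK-NBL2, where 54.8% of all genes passed. LTBP4, a latent TGFb binding protein, fell in both lines (-2.54 ± 0.49, adjusted p = 0.00048, in MDCK-NBL2; -1.77 ± 0.42, adjusted p = 0.0067, in MDCK-II). Leaving out untreated replicate 1 made the MDCK-NBL2 change of LTBP4 -1.49 (adjusted p = 0.0031), and leaving out replicate 2 made it -3.01 (adjusted p = 5.9e-07). FST, which traps activins and some BMPs, fell in MDCK-II (-3.16 ± 0.67, adjusted p = 0.0035), and its responses differed by 4.37 ± 0.94 (adjusted p = 0.012). Of 12 tested target genes of 15, TGFb raised 5 in MDCK-NBL2 (9 without untreated replicate 2) and 7 in MDCK-II and lowered none, where 44.3% (54.8%) and 21.1% of all genes passed.

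With siPRRX1, 0 genes passed in each of these 5 lists by edgeR and by DESeq2, where 2.00% and 3.70% of all genes did. Without MDCK-NBL2 untreated day 4 replicate 2, however, edgeR called 3 ligands, 1 regulator of receptors and SMADs and 1 target gene, all lower with siPRRX1, where 5.21% of all genes passed. The numbers at an unadjusted p under 0.05 were 4 ligands, 2 SMADs, 2 regulators of receptors and SMADs, 1 extracellular regulator and 0 target genes. For scale, edgeR's unadjusted p of 0.031 for SMAD1 ranked 1414 among the 12466 tested genes, and that of 0.055 for BMPR1A ranked 1957. The median log2 responses to TGFb in MDCK-NBL2 and MDCK-II were 0.62 and 1.73 for ligands, 0.06 and 0.29 for SMADs, 0.25 and 0.43 for regulators, 1.28 and 0.99 for extracellular regulators and 1.52 and 1.66 for target genes. Without untreated replicate 2 of MDCK-NBL2 they were 0.98 and 1.72 for ligands, 0.12 and 0.29 for SMADs, 0.28 and 0.43 for regulators, 1.71 and 0.96 for extracellular regulators and 3.32 and 1.66 for target genes, so for target genes the order of the lines turned round.

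Over all 24 libraries the tested genes with the most similar profile to each receptor were named by Pearson's r of log2 CPM, as a description, since libraries share groups. For TGFBR1 these were CFTR (r = 0.981) and GSS (0.980), for TGFBR2 ARHGEF11 (0.938) and DDRGK1 (0.932), and for TGFBR3 GABBR2 (0.955) and GNG4 (0.942). ACVR1 was most like P4HA2 (0.961) and SPECC1 (0.957), BMPR2 most like LAPTM4A (0.988) and HOMER3 (0.986). The flattest receptors had weaker matches, BMPR1A with TESK1 (0.876) and DDRGK1 (0.873) and ACVR2A with FAM149A (0.856) and CRIM1 (0.756). No receptor of the 8 was among these matches.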

How the data were processed

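Messenger RNA libraries from MDCK-NBL2 and MDCK-II cells were analysed from the table of whole-number gene counts that the authors deposited. Per the submitters' processing notes, STAR 2.5.3a, RSEM 1.3.0 and FastQC were used with the dog build CanFam3.1; their order, the annotation release, the strand setting and any rounding of estimates: not given in the sources used here. Groups came from the sample labels, 8 groups of 3 libraries. Genes passed edgeR's filterByExpr (minimum count 10, minimum total 15), leaving 12466 of 32704. TMM-scaled counts of all 24 libraries were fitted with a mean per group (16 residual degrees of freedom, biological coefficient of variation 21.9%) in edgeR 4.0.16 under R 4.3.3, and 9 contrasts were tested with quasi-likelihood F tests and Benjamini-Hochberg adjustment over all genes tested. Standard errors are the log2 fold change divided by the root of F, and intervals are 95% intervals. CPM values use TMM-scaled library sizes and are not divided by transcript length, so levels are compared within a gene only. Total counts of 6134929 to 27567296 limit the precision of low genes, and count ratios carry exact intervals for counting error.

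Alternatives were DESeq2 1.42.0 (its size factors and its Wald test), no filter, a term for the replicate number or for the series of library numbers, a fit to the compared groups alone, and each library left out; the fit to the groups compared without the library that stands apart was chosen after seeing the data. Same-numbered libraries deviated together for TGFb in MDCK-II (correlations 0.42, 0.25 and 0.30) and for siPRRX1 (0.34, 0.19 and 0.16), above 0.1 in every pair; in the other contrasts they did not in every pair. The code was tested on simulated data. The receptors and gene lists were chosen with earlier results of these data known. The naming rule covered the 8 receptors, the other listed receptors, up to 3 genes per direction with the smallest adjusted p under 0.05 in each pathway list, the 2 most similar genes of each receptor, and PRRX1. Of the pathway genes it covers, a selection made after their values were seen is described; a target gene among the rest is not reported here. No sequence or transcript length was used here.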

Additional observations from a re-analysis of the deposited data

Results flagged for a closer look

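The response of TGFBR3 to TGFb differed between the lines by 4.23 on the log2 scale (MDCK-NBL2 minus MDCK-II, SE 1.15, adjusted p = 0.038), by a direct test of the difference in edgeR. Treated libraries lay above untreated day 4 libraries in 3 of 3 MDCK-NBL2 samples (0.609 to 1.53 CPM against 0.0739 to 0.244 CPM) and below them in 3 of 3 MDCK-II samples (4.33 to 9.04 CPM against 14.0 to 33.3 CPM). Such groups did not overlap, in either direction, for 43.0% of all genes in MDCK-NBL2 and 39.8% in MDCK-II. The MDCK-NBL2 values of TGFBR3 rest on 19 counts with TGFb and 9 without. DESeq2 gave 4.34 (adjusted p = 0.0026), a fit to the 4 groups alone 4.22 (adjusted p = 0.062), and the fit without MDCK-NBL2 untreated day 4 replicate 2 gave 3.77 (adjusted p = 0.038).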

How the results depend on the processing

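Of 24 receptor changes called with all libraries, 14 stayed called under every alternative run; over their 374 alternatives, 327 kept the call, 47 lost it and 0 changed direction. Of 39 changes not called, 31 of 633 alternatives made a call and 58 changed direction. The cause was not tested.

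Counts of calls over the 7 receptors and over all genes moved most with the libraries in the fit. For the difference of TGFb responses (1 receptor, 711 genes), DESeq2 called 1172 genes; the 4 groups alone 0 receptors and 48 genes, with the replicate block 0 and 49, and without MDCK-NBL2 untreated day 4 replicate 2 1152 genes. All groups without that library gave 3 receptors and 2653 genes, and with the block 3 and 3014. For siPRRX1 (0 and 249), DESeq2 called 461 genes and no filter 163; the groups alone gave 1 and 1159, with the replicate block 3 and 2528, all groups without that library 1 and 655, and with the block 1 and 823. For TGFb in MDCK-NBL2 (5 and 5525), the groups alone gave 0 and 510, and with the block 0 and 40. For TGFb in MDCK-II (2626 genes), the block without that library gave 4166, with TGFBR1 called (0.33, adjusted p = 0.015). Between the lines untreated at day 4 (5 and 4527), the groups alone gave 3 and 1267, with the block 3 and 1076, and without that library 3 and 1285. For day 4 over day 0 in MDCK-II (0 and 1223), the groups alone gave 1 receptor, with the block 496 genes, all groups without that library 1 and 2075, and with the block 1 and 2589. For day 4 over day 0 in MDCK-NBL2 (0 and 2206), the groups alone gave 0 genes with or without the block or that library, and all groups without that library 2 receptors, with the block 1.

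With 1 library left out, the receptors and genes called ran from 2 to 4 and 4457 to 6890 (TGFb in MDCK-NBL2), 2 to 3 and 1257 to 2679 (TGFb in MDCK-II), 0 to 3 and 311 to 2653 (difference), 0 to 0 and 54 to 234 (siPRRX1), 4 to 5 and 2691 to 3096 (lines at day 0), 5 to 6 and 3699 to 5998 (untreated day 4), 5 to 6 and 4739 to 4996 (with TGFb), 0 to 2 and 729 to 5324 (day 4 over day 0, MDCK-NBL2) and 0 to 0 and 509 to 1351 (MDCK-II).

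Values near 0 changed sign. For TGFb in MDCK-NBL2, ACVR2A was -0.038 without the filter, -0.0025 with the block, -0.014 in the groups alone, -0.060 there with the block, -0.035 there without the library apart and -0.018 in all groups without it. For the difference, ACVR1 was -0.029 without the filter and -0.0088 in the groups alone; BMPR1A was -0.015 without the filter, -0.010 in the groups alone, -0.0033 there with the block, -0.072 there without the library apart, -0.074 in all groups without it and -0.022 there with the block. BAMBI was 0.15 in both fits without that library and 0.20 with the block. For day 4 over day 0, TGFBR3 in MDCK-II was -0.061 with the block and -0.036 also without that library, TGFBR1 in MDCK-II 0.031 in the groups alone and 0.029 there with the block, and ACVR1 in MDCK-NBL2 -0.084 in the groups alone without that library, -0.050 in all groups without it and -0.055 there with the block.

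Leaving out 1 library spanned 0 for TGFb in MDCK-II in ACVR2A (-0.087 to 0.45) and TGFBR2 (-0.15 to 0.016), and in MDCK-NBL2 in ACVR2A (-0.30 to 0.18). It did so for the difference in ACVR1 (-0.18 to 0.27), ACVR2A (-0.45 to 0.098), BMPR1A (-0.11 to 0.11), BMPR2 (-0.099 to 0.47), ACVR1B (-0.045 to 0.69) and BAMBI (-5.07 to 0.15). For siPRRX1 it did so in ACVR2A (-0.14 to 0.21), BMPR2 (-0.16 to 0.021) and ACVR2B (-0.22 to 0.097). Day 4 over day 0 did so in MDCK-II for BMPR1A (-0.17 to 0.037), BMPR2 (-0.16 to 0.17), TGFBR1 (-0.044 to 0.049) and TGFBR3 (-0.42 to 0.32), and in MDCK-NBL2 for ACVR1 (-0.050 to 0.39), ACVR2A (-0.028 to 0.092), TGFBR2 (-0.087 to 0.62) and TGFBR3 (-2.61 to 0.87). Between the lines ACVR2B did at day 0 (-0.035 to 0.29) and untreated at day 4 (-0.093 to 0.044), and ACVR1B with TGFb (-0.26 to 0.040).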

Other observations

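MDCK-NBL2 untreated day 4 replicate 2 did not sit at the same point for each receptor. On the log2 scale it lay 95.1% of the way from the other 2 untreated libraries of its group to the treated mean for TGFBR1 and 102% for TGFBR2, but 57.5% for ACVR1 and 58.4% for BMPR2. For TGFBR3 it held 2 counts and lay on the untreated side, at -33.0%. It was not tested where these values come from.

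Across the 24 libraries, which share groups and depth, TGFBR1 and BMPR2 were the most alike pair of tested receptors (Pearson's r of log2 CPM 0.855), followed by TGFBR2 and BMPR1A (0.811) and by ACVR1 and BMPR2 (0.785). TGFBR1 and TGFBR2, the kinases of the TGFb receptor complex, had r = 0.746. TGFBR3 ran against both of them, with r = -0.847 against TGFBR1 and -0.810 against TGFBR2. TGFBR2 and ACVR1 had r = 0.00. These values are descriptions and carry no test.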
